A study of Homo sapiens with 16 samples.

Results

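The 26 genes described here lie along 1 stretch of the long arm of chromosome 12, at 12q23 to 12q24, from NFYB to SELPLG. Some other measured genes, described further below, lie between them. They were chosen because earlier results of these data showed most of them moving the same way between the 2 groups of arrays, so the difference between the groups is given for them as a description and is not tested. Their members are the exon-level probe sets whose only gene symbol is 1 of the 26 names: 333 of the 257430 probe sets in the table, of which 224320 carry 1 symbol. A probe set is a small group of probes within an exon or part of one. Per gene there were 1 (EID3) to 29 (POLR3B) probe sets.

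The study measured RNA of L1236, an established Hodgkin lymphoma line, infected with a retrovirus whose short hairpin targets RELB, a subunit of NF-kB. One group is labelled induced, meaning that doxycycline was given to switch on the hairpin, and the other uninduced, meaning that the same infected cells got none. Each group has 4 arrays, replicates 1 to 4, which carry a B code (1 for replicates 1 and 2, 4 for replicates 3 and 4) and a last number (1 for replicates 1 and 3, 4 for replicates 2 and 4) that the labels do not explain. All cells of both groups carry the virus, no uninfected cells were compared, and no source used here says whether the 4 arrays of a group come from separate cultures. The p-values below therefore speak only of array-to-array spread, which may be technical.

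Values are log2 signals, and a gene's value on an array is the mean of all its probe sets. RELB gave 7.64, 7.53, 7.53 and 7.36 on the induced arrays, against 7.52, 7.52, 7.81 and 7.66 on the uninduced arrays. The groups overlap, with a difference of -0.11 ± 0.10 (SE, n = 4 per group), a limma adjusted p of 0.384 over 18701 genes and an exact permutation p of 0.286, where 0.0286 is the smallest that 4 against 4 arrays allow. The hairpin's target thus does not bear out the labels, and every direction below rests on them alone. Column medians are given in the account of the processing. Of 8 Hodgkin cell markers, 8 had at least 50% of their probe sets above the low-signal threshold explained below. Of the 5 B-cell markers measured, MS4A1 did not. The summed log2 signal of the B-cell markers was 40.5 to 41.8 on induced arrays and 29.7 to 30.3 on uninduced arrays. This gap came from 3 of 5, CD79A (4.52), CD22 (3.87) and PAX5 (2.86), which were at least 2-fold higher. CD79B (-0.12 ± 0.12) and MS4A1 (0.20 ± 0.09) overlapped between groups. The summed Hodgkin list was 63.3 to 65.6 on induced and 59.9 to 61.1 on uninduced arrays, a sum over members that went opposite ways: TNFRSF8 (4.402 log2) and TRAF1 (2.16) were at least 2-fold higher, and FUT4 (-2.51) and CD40 (-1.42) at least 2-fold lower. The T-cell list, in which CD3D, CD3E and CD2 were under the threshold, was 29.3 to 30.1 on induced and 28.6 to 29.3 on uninduced arrays. The myeloid list was 25.2 to 26.7 and the fibroblast list 27.0 to 28.2 on induced arrays, against 24.7 to 25.7 and 26.1 to 27.0 on uninduced arrays. LYZ of the myeloid list and DCN of the fibroblast list had under 50% of their probe sets above the threshold. In each of these lists 1 of 5 genes was at least 2-fold higher, CD68 (1.002 ± 0.10) and PDGFRB (1.04 ± 0.10), without overlap between groups. In the myeloid list ITGAM was lower (-0.41 ± 0.10), also without overlap. The list medians were 0.05 for the myeloid and 0.09 for the fibroblast list. The part of these markers in the differences described here was not tested.

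Genes that are neighbours on a chromosome usually have promoters of their own and need not share a function. The stretch from NFYB to SELPLG holds genes that nearly every cell uses, such as ISCU, the scaffold on which iron-sulfur clusters are built, SART3, which recycles the U6 spliceosomal particle, and POLR3B, a core subunit of RNA polymerase III. It also holds genes known mainly from particular tissues, such as TMEM119, a microglial marker, RFX4, a transcription factor of the brain and testis, and SELPLG, the selectin ligand of white blood cells. NFYB encodes a subunit of NF-Y, the factor that binds CCAAT boxes in promoters, and CRY1 is a repressor of the circadian clock.

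The bases upstream of 4 members are shown because these genes had the largest differences: SLC41A2, C12orf45 and ISCU the 3 largest upwards, and CRY1 the largest downwards. Each run holds the 250 bases before the gene's start, 5′ to 3′ on the gene's own strand, from RefSeq's promoter table for GRCh38.p14, and capitals mark CCAAT boxes (CCAAT, or ATTGG on the other strand). SLC41A2 has 2 starts in the table, of which the one listed first is shown.
SLC41A2, chr12:104958747-104958996, minus strand: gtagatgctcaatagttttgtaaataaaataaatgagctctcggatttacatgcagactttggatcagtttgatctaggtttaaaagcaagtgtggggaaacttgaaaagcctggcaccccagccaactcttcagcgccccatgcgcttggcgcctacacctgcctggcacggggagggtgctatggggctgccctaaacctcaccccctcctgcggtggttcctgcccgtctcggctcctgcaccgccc
C12orf45, chr12:104986066-104986315, plus strand: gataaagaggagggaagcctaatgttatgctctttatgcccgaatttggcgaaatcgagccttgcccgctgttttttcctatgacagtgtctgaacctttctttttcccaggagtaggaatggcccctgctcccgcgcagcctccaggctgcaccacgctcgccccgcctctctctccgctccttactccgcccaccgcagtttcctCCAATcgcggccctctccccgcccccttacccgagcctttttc
ISCU, chr12:108562346-108562595, plus strand: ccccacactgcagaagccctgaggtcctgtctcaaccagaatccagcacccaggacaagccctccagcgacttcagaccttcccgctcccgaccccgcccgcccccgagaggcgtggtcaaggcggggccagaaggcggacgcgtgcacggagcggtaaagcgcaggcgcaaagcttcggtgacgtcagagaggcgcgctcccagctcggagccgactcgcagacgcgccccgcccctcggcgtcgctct
CRY1, chr12:107093550-107093799, minus strand: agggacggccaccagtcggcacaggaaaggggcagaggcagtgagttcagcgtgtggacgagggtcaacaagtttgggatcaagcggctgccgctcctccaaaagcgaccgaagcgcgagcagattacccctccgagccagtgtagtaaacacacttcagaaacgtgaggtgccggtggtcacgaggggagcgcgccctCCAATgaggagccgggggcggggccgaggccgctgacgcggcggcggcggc

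The promoter table held 19 of the 26 genes. Of these 19, 8 had a CCAAT box on either strand within 250 bases before at least 1 listed start, among them C12orf45 and CRY1, whose differences were opposite in sign. Of all 27305 genes in the table, 37% had one. A kB-like motif, GGG followed by any 2 bases and TTTCC, read on both strands, stood in 0 of the 19, against 2.12% of all genes, and the E-box CACGTG, which reads the same on both strands, stood in 1 of the 19 (PWP1), against 7.73%. The 4 runs shown hold no match to the last 2 motifs, so none overlaps a CCAAT box there. A match is a description of the letters in this window, not a binding site.

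Most of the 26 genes were higher in the arrays labelled induced. The median difference over the 26 was 0.62 log2, against 0.04 over all 18701 genes, and 21 of the 26 were above 0, against 55.3% of all genes. At least 2-fold higher were 7 genes: SLC41A2, C12orf45, APPL2, C12orf75, NUAK1, SART3 and ISCU. Over all genes 5.61% were that much higher. At least 2-fold lower was 1 gene, CRY1, against 7.84% of all genes. The 4 induced values lay above all 4 uninduced values for 15 genes (20.5% of all genes) and below them for 2, CHST11 and CRY1 (20.9% of all genes). Since the genes were picked on this contrast, nothing is read from these shares. By pair of arrays with the same B code and last number, the median over the 26 was 0.51, 0.59, 0.48 and 0.54 for replicates 1 to 4. The choice of genes used all of these arrays, so the likeness of the pairs is no support either.

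**Figure D1:**
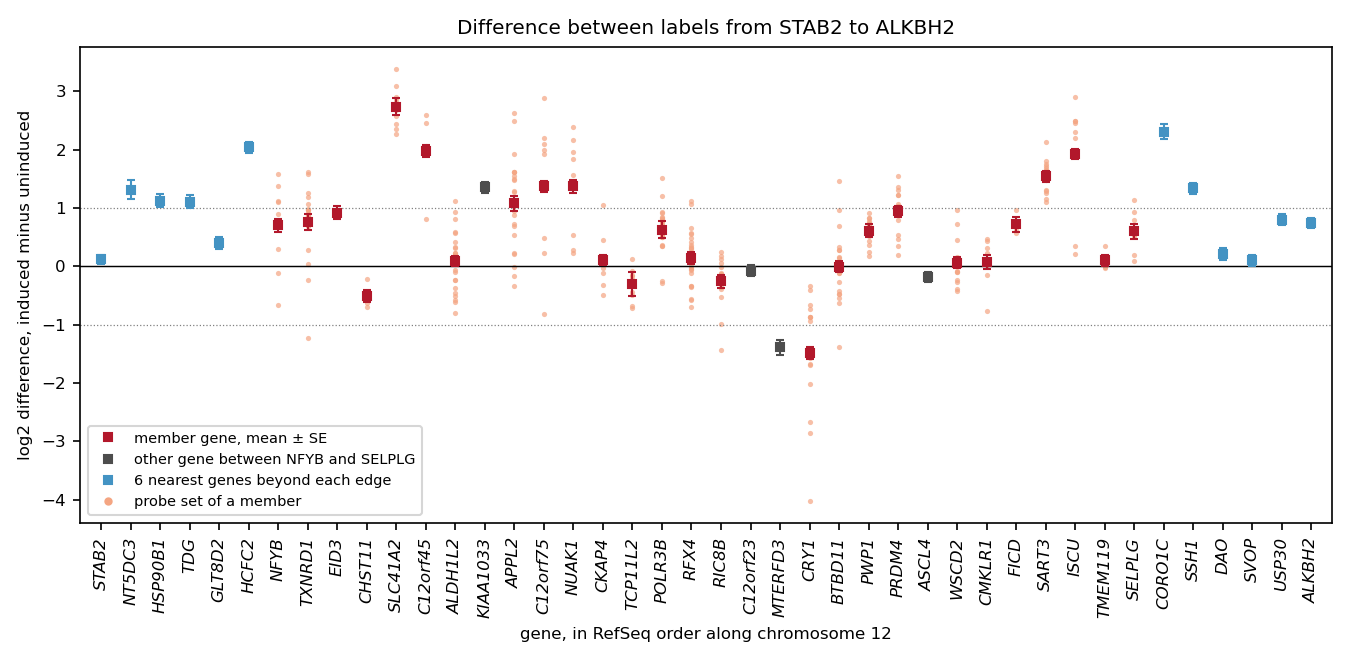
The 26 genes (red squares), the 4 other genes between them (dark grey) and the 6 nearest genes beyond each edge (blue), in gene order from left to right. The vertical axis is the log2 difference, induced minus uninduced, squares are gene means with the SE of the fit, pale dots are single probe sets of members, and dotted lines mark 2-fold. SLC41A2 stands highest at 2.74 and CRY1 lowest at -1.48, and the genes just outside both edges are above 0.

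At the NFYB end the first 3 genes were higher in the induced arrays. NFYB gave 6.92, 7.05, 7.06 and 6.82 on induced arrays, against 6.39, 5.98, 6.29 and 6.37 on uninduced arrays. Each induced value exceeds each uninduced one, with a difference of 0.70 ± 0.11 (SE, n = 4 per group). The median of the differences of its 8 probe sets was 1.01, the difference became 0.35 when each array was summarised by the median of the 8 signals, and it was 1.30 in the gene-level table of the same arrays. TXNRD1, the cytosolic thioredoxin reductase, gave 9.59, 9.26, 9.74 and 9.04 on induced arrays, against 8.45, 8.63, 8.78 and 8.71 on uninduced arrays. The groups do not overlap, and the induced arrays of last number 1 are the higher pair of their group; the difference was 0.76 ± 0.13. EID3, a component of the SMC5/6 complex, lies inside the span of TXNRD1 in the RefSeq order and has 1 probe set. It gave 6.96, 6.59, 6.73 and 6.55 on induced and 5.92, 5.62, 5.66 and 5.93 on uninduced arrays, a difference of 0.92 ± 0.11. Since EID3 is nested in TXNRD1, signal from transcripts of the larger gene could not be told apart from its own.

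CHST11, a chondroitin sulfotransferase and the next gene, broke the row. It gave 8.56, 8.46, 8.36 and 8.67 on induced arrays, against 9.19, 9.10, 8.96 and 8.86 on uninduced arrays. Each induced value is below each uninduced one. The difference was -0.51 ± 0.10, all 4 of its probe sets were lower (-0.70 to -0.21), and all 4 were above the low-signal threshold.

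The largest differences followed directly after CHST11. SLC41A2, a magnesium transporter, gave 9.04, 9.02, 8.48 and 9.32 on induced arrays, against 6.21, 6.17, 6.24 and 6.26 on uninduced arrays. The uninduced values are nearly equal and the induced ones lie far above them, 6.68-fold higher on average (2.74 ± 0.14). All 11 probe sets were at least 2-fold higher, from 2.27 to 3.39. C12orf45, now named NOPCHAP1, helps assemble small nucleolar ribonucleoproteins. It gave 8.87, 8.63, 9.14 and 9.10 on induced and 6.83, 6.99, 7.10 and 6.87 on uninduced arrays. This is 3.95-fold higher (1.98 ± 0.10), and its 4 probe sets all separated the groups, at 0.82 to 2.59.

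ALDH1L2, a mitochondrial enzyme of folate metabolism, showed almost no difference between its groups (0.09 ± 0.08). Its values ran from 4.22 to 4.43 on induced and from 4.14 to 4.38 on uninduced arrays. Of its 23 probe sets, 6 passed the low-signal threshold, a mean of 4.77 over the 8 arrays, which is the 25th percentile of all 1-symbol probe sets. The threshold is a percentile and not a measured background, and a difference between signals below it may be understated. Over all members 238 of 333 probe sets passed, and every gene had at least 1 that did.

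APPL2, C12orf75 and NUAK1 were all more than 2-fold higher. APPL2, an adaptor protein of early endosomes, gave 7.35, 7.52, 7.15 and 7.50 on induced arrays, against 6.52, 6.66, 6.15 and 5.87 on uninduced arrays. The uninduced values spread more than the induced ones, yet none reaches them (1.08 ± 0.13, 2.11-fold). Without the uninduced array of replicate 4 the difference was 0.93, and without its induced array 0.96, both under 2-fold. C12orf75 gave 9.56, 9.47, 9.33 and 9.50 on induced and 7.99, 8.13, 8.18 and 8.07 on uninduced arrays (1.37 ± 0.09, or 2.11 in the gene-level table). NUAK1, a kinase related to AMPK, gave 6.347, 6.193, 6.241 and 6.005 on induced and 4.717, 4.567, 5.046 and 4.976 on uninduced arrays (1.37 ± 0.11). Both genes separate the groups by more than the range within either group.

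The middle of the stretch, from CKAP4 to BTBD11, held most of the exceptions. CKAP4, a membrane protein of the endoplasmic reticulum, gave 7.09, 7.34, 7.49 and 7.69 on induced arrays, against 7.19, 7.25, 7.38 and 7.35 on uninduced arrays. The groups overlap and the difference was 0.11 ± 0.09, though 8 of its 10 probe sets passed the threshold. TCP11L2 gave 5.53, 5.30, 5.11 and 5.89 on induced and 6.11, 5.90, 5.83 and 5.21 on uninduced arrays. In replicates 1 to 3 the induced array was lower by 0.58 to 0.72, and in replicate 4 it was higher by 0.68. The mean difference of -0.30 ± 0.20 was -0.59 without the induced array of replicate 4 and -0.51 without its uninduced array. Without the other arrays it ran from -0.27 to -0.16: -0.16 without the induced array of replicate 3, -0.19 without that of replicate 2, and -0.20 without the uninduced array of replicate 1.

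POLR3B, the next gene, was higher again. It gave 8.24, 7.88, 8.62 and 8.15 on induced arrays, against 7.75, 7.77, 7.40 and 7.47 on uninduced arrays. The groups do not overlap, but the induced array of replicate 2 lies only just above the highest uninduced one (0.63 ± 0.15). Of its 29 probe sets, 27 were above 0. RFX4 (0.14 ± 0.10) and RIC8B, a chaperone of G protein alpha subunits (-0.26 ± 0.11), overlapped between groups and had 5 of 25 and 4 of 14 probe sets above the threshold.

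Among the 26 genes CRY1 alone was at least 2-fold lower in induced arrays. It gave 3.93, 3.99, 4.10 and 4.17 on induced arrays, against 5.49, 5.54, 5.74 and 5.33 on uninduced arrays. Every induced value is over 1 log2 unit below every uninduced one (-1.48 ± 0.10, 2.78-fold lower). All 15 probe sets were lower, 7 by at least 2-fold. The group mean was under the threshold for 12 of the 15 in induced arrays and for 2 in uninduced arrays. The fold may therefore be understated, though the gene-level table gave a smaller difference (-1.27). The probe set with the largest difference gave 2.96, 2.65, 3.73 and 3.35 on induced arrays, against 7.33, 7.47, 6.97 and 6.99 on uninduced arrays, a difference of -4.02 ± 0.27. MTERF2, a mitochondrial transcription termination factor listed as MTERFD3 and placed just before CRY1 in gene order, is no member. It was lower too, with 4.74, 5.32, 4.95 and 5.10 on induced arrays and 6.63, 6.36, 6.41 and 6.25 on uninduced arrays (-1.39 ± 0.13). On CRY1's other side BTBD11, now ABTB3, gave 4.47 to 4.78 on induced and 4.43 to 4.71 on uninduced arrays (-0.01 ± 0.09, but 0.04 after quantile normalisation and 0.05 after median centring), with 7 of 23 probe sets above the threshold.

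PWP1, which takes part in ribosome production, and PRDM4, a zinc finger protein, were higher. PWP1 gave 9.43, 9.12, 9.43 and 9.20 on induced arrays, against 8.40, 8.57, 8.92 and 8.83 on uninduced arrays (0.61 ± 0.11). All 16 of its probe sets were above 0 and none by 2-fold, from 0.18 to 0.92. PRDM4 gave 8.06, 8.06, 8.21 and 8.13 on induced and 7.31, 7.23, 7.12 and 7.03 on uninduced arrays (0.94 ± 0.09). Neither gene's groups overlap. WSCD2 (0.07 ± 0.09) and CMKLR1, the chemerin receptor (0.07 ± 0.13), overlapped, with 9 of 11 and 2 of 8 probe sets above the threshold.

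At the SELPLG end 4 of 5 genes were higher. FICD, which modifies the chaperone BiP by AMPylation, gave 6.35, 6.20, 5.96 and 6.53 on induced arrays, against 5.63, 5.40, 5.51 and 5.62 on uninduced arrays (0.72 ± 0.13). SART3 gave 10.06, 10.05, 10.32 and 10.18 on induced and 8.58, 8.73, 8.67 and 8.47 on uninduced arrays, 2.91-fold higher (1.54 ± 0.10). All 23 of its probe sets were at least 2-fold higher, within a range of 1.10 to 2.13, and 22 separated the groups. ISCU, its neighbour, gave 9.53, 9.71, 9.51 and 9.56 on induced and 7.74, 7.70, 7.54 and 7.63 on uninduced arrays, 3.80-fold higher (1.93 ± 0.08). For both genes the gap between groups is several times the range within a group. TMEM119 overlapped (0.11 ± 0.09, 2 of 4 probe sets above the threshold). SELPLG gave 6.52, 7.13, 6.66 and 6.97 on induced arrays, against 6.18, 6.14, 6.35 and 6.20 on uninduced arrays (0.60 ± 0.12). Its groups do not overlap, and the induced arrays of last number 4 are the higher ones.

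**Figure D2:**
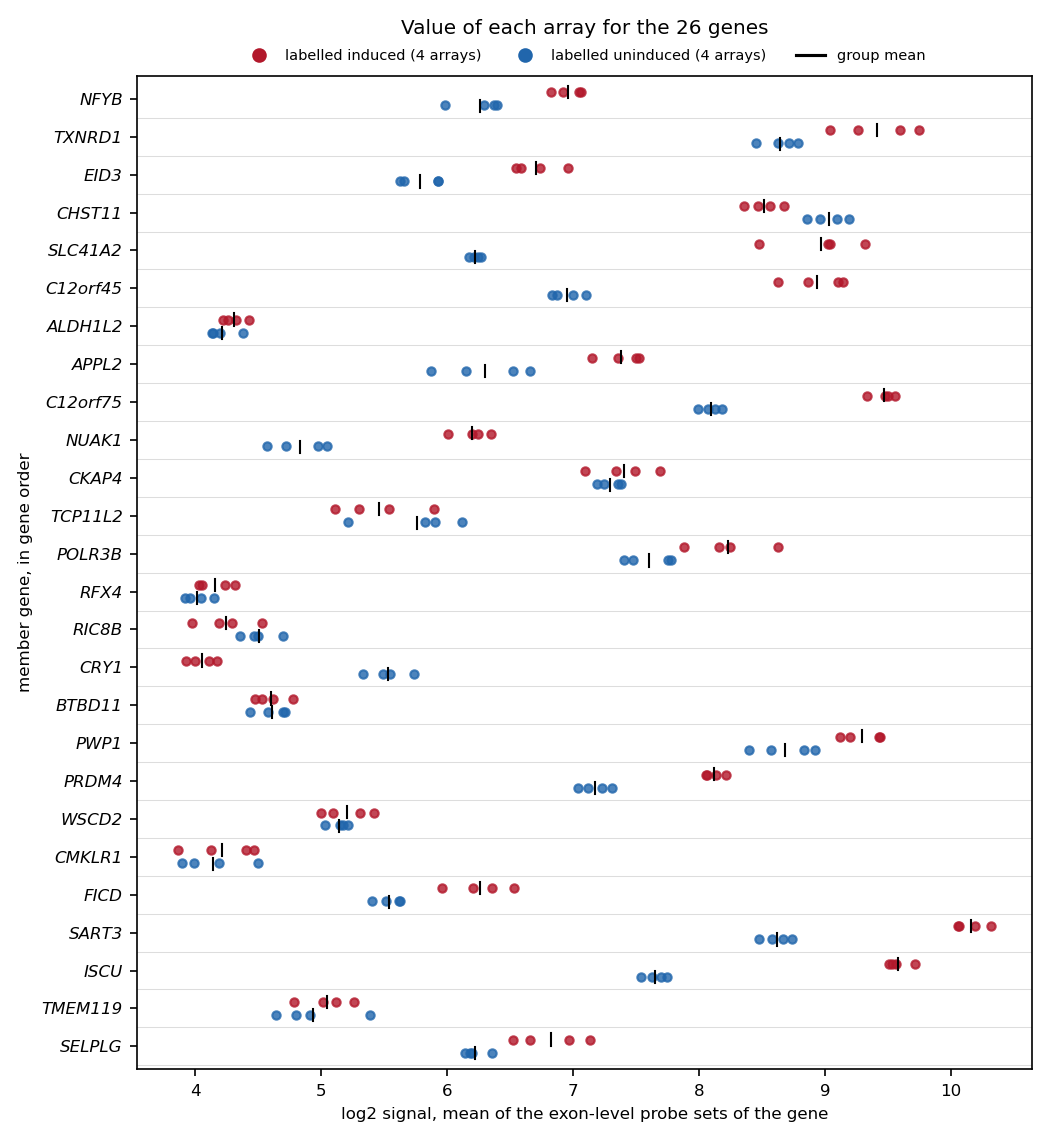
Log2 signal of each array (horizontal axis, mean of a gene's probe sets) for the 26 genes in gene order from the top, with induced arrays in red above uninduced arrays in blue and black ticks at group means. The colours do not overlap for 17 genes, in CHST11 and CRY1 with red to the left of blue, while levels are not comparable between genes.

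Outside the common direction, below 0 or under 0.25 log2, stood 11 of the 26 genes. Of these, 5 had under 50% of their probe sets above the threshold: ALDH1L2, RFX4, RIC8B, BTBD11 and CMKLR1. The other 6 were CHST11, CKAP4, TCP11L2, CRY1, WSCD2 and TMEM119. Among members, the 238 probe sets that passed had a median difference of 0.78 and the 95 that did not a median of -0.01. A probe set could pass through the group in which it was high, so these medians support no difference. A gene without a difference at a dim level cannot be told apart from a gene whose transcripts were too few to be measured. Fewer expressing cells and less RNA per cell cannot be told apart either. Just inside the 2-fold mark lay APPL2 (1.08) and just outside it PRDM4 (0.94) and EID3 (0.92).

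At the level of single probe sets, 91 of 333 were at least 2-fold higher in induced arrays, against 9.12% of all probe sets with 1 symbol, and 10 were at least 2-fold lower, against 10.2%. The groups did not overlap for 129 that were higher (15% of all) and 16 that were lower (15.1% of all). The 10 lower ones include 7 of CRY1 and 1 each of TXNRD1, RIC8B and BTBD11. Of these 10, 5 passed the threshold and 5, among them the last 3, did not. The count of 10 was 16 without the induced array of replicate 4. Above 0 were 236 of the 333, against 52% of all.

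In some genes the probe sets differed among themselves. Over 1 log2 unit from the median of their own gene stood 26 probe sets of 11 genes, 22 of them below it and 4 above. No share over all genes is given beside this count, so nothing is read from it. APPL2 held the most, 5 of 22, and its probe sets ran from -0.34 to 2.63. NFYB held 2 of 8, with a range of -0.67 to 1.59. In C12orf75 the first 3 probe sets by identifier differed by -0.82 to 0.48, while the other 5 were higher by 1.93 to 2.89. The first of its 8 probe sets gave 8.75, 8.69, 8.88 and 9.14 on induced arrays, against 9.71, 9.81, 9.57 and 9.64 on uninduced arrays, so it ran opposite to its gene, with no overlap and above the threshold. In ISCU the first 2 by identifier differed by 0.21 and 0.35, and the other 6 by 2.20 to 2.90. In NUAK1 the first 5 were higher by 1.57 to 2.39 and the last 3 by 0.22 to 0.53. In TXNRD1 the first 3 lay between -1.23 and 0.05, of which 1 passed the threshold, and the other 19 between 0.28 and 1.62. In CRY1 the differences ran from -4.02 to -0.34. SLC41A2, SART3, PWP1, PRDM4 and POLR3B had no probe set that far from their median. The files give no exon position, so order by identifier is not stated to be order along the transcript, and these blocks were noticed in the values and not tested.

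**Figure D3:**
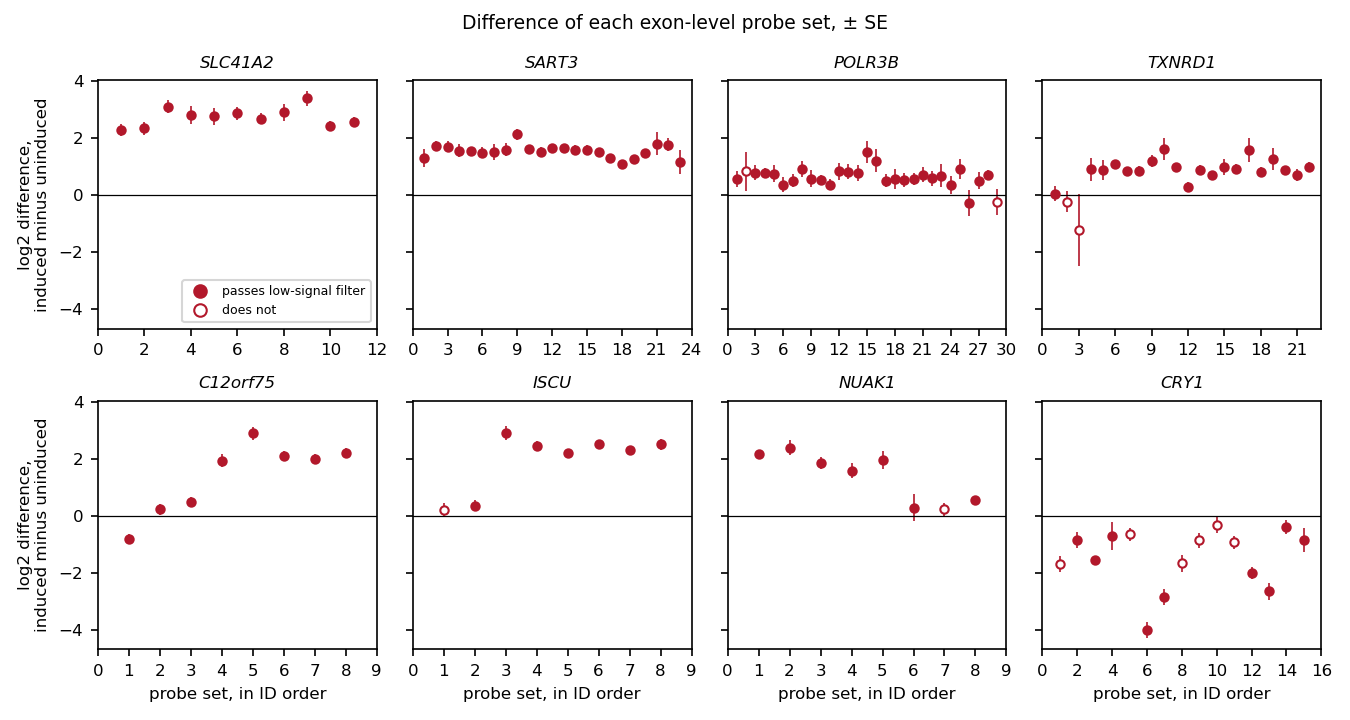
Log2 difference, induced minus uninduced, with the SE of the fit (vertical axis) for each probe set of 8 members in order of identifier (horizontal axis); open circles did not pass the low-signal threshold. SLC41A2 and SART3 are level across their probe sets, while C12orf75, ISCU and NUAK1 hold a block between -0.82 and 0.53 beside a block around 2.

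The edges of the list were not edges of the difference. Before NFYB stood HCFC2, a relative of host cell factor, with 8.16, 8.18, 8.13 and 7.91 on induced arrays, against 6.29, 6.25, 5.91 and 5.78 on uninduced arrays (2.04 ± 0.09). This exceeds the difference of NFYB itself. Of the 6 nearest genes on that side, NT5DC3 (1.31 ± 0.16), the chaperone HSP90B1 (1.13 ± 0.11) and the DNA glycosylase TDG (1.11 ± 0.11) were also over 2-fold higher, and GLT8D2 (0.41 ± 0.10) and STAB2 (0.12 ± 0.08) less so. After SELPLG stood the actin-binding coronin CORO1C, with 10.73, 10.60, 10.81 and 10.58 on induced arrays, against 8.07, 8.03, 8.69 and 8.69 on uninduced arrays (2.31 ± 0.13). It was followed by the phosphatase SSH1 (1.34 ± 0.09), DAO (0.21 ± 0.10), SVOP (0.10 ± 0.09), the deubiquitinase USP30 (0.80 ± 0.09) and the demethylase ALKBH2 (0.74 ± 0.09). Between the members, WASHC4 (listed as KIAA1033), a subunit of the WASH complex, was 2.55-fold higher (1.35 ± 0.10), and TMEM263 (listed as C12orf23) and ASCL4 differed little (-0.07 ± 0.10 and -0.18 ± 0.08). Among genes with at least 50% of their probe sets above the threshold, 5 in a row on each side of the list were above 0. The first at or below 0 were NUP37 (-0.07 ± 0.10) before NFYB and ACACB (-0.28 ± 0.10) after SELPLG.

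The same direction held over much of the distal part of the chromosome. Of 202 genes placed after SELPLG, 77.2% were above 0, with a median of 0.44, and 16.8% were at least 2-fold higher. Of 754 genes before NFYB, 47.6% were above 0, with a median of -0.03. Along the 753 genes of chromosome 12 with at least 50% of their probe sets above the threshold, a running median of 15 genes was last at or below 0 at NUDT4, with 41 such genes between it and NFYB. From there to the end of the chromosome it stayed between 0.04 and 1.13. Further back it was also above 0 from XRCC6BP1 to CEP290, at up to 0.68. Between these stretches, from TMTC3 to NUDT4, it lay between -0.07 and -0.03. The 26 genes are thus 1 piece of a longer stretch with the same sign. These shares describe 1 contrast, part of which the choice of genes used, and no test was made of them.

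**Figure D4:**
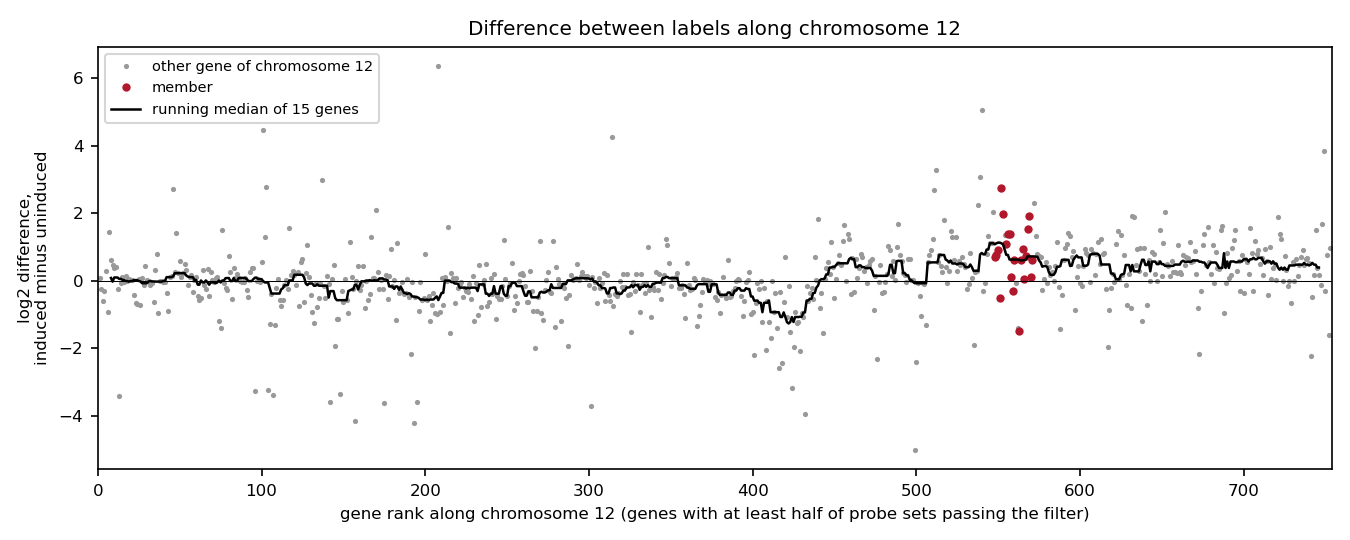
Log2 difference, induced minus uninduced (vertical axis), of 753 genes of chromosome 12 in gene order (horizontal axis, rank), with the 21 members among them in red, other genes in grey and a running median of 15 genes in black. The black line stays above 0 from 41 genes before NFYB to the right end, where the median of the 182 genes after SELPLG was 0.50.

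Contrasts that the choice of genes did not use were tested with limma over all 168240 exon-level probe sets above the threshold. Between B codes (B_4 minus B_1), 0 of the 238 member probe sets passed an adjusted p of 0.05, as did 0% of all tested, and 11 of 238 had an unadjusted p under 0.05, against 7.22% of all. The 2 lowest were in ALDH1L2 (0.90 ± 0.18, limma unadjusted p = 0.00146) and APPL2 (-1.07 ± 0.29, limma unadjusted p = 0.00777), both with an adjusted p of 0.679. Between last numbers (4 minus 1), 0 of 238 passed (0% of all), and 11 had an unadjusted p under 0.05, against 5.57% of all. The 2 lowest were in CRY1 (-0.56 ± 0.16) and APPL2 (0.98 ± 0.29), both with a limma adjusted p of 0.870. Per gene the median size of the B code difference was 0.10 over the 26 and 0.10 over all genes, against 0.66 and 0.24 for the induction label.

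Whether the label difference varied between B codes or last numbers was asked with interaction terms. For the B code, 0 of 238 passed (0% of all), and 31 had a limma unadjusted p under 0.05, against 7.33% of all. The lowest were probe sets of WSCD2 (2.18 ± 0.35) and APPL2 (1.78 ± 0.36), both with a limma adjusted p of 0.657. For the last number, 0 of 238 passed (0% of all), and 12 had an unadjusted p under 0.05, against 4.01% of all, with the lowest in APPL2 (1.66 ± 0.39) and SELPLG (1.28 ± 0.31), both with a limma adjusted p of 0.9999. With gene means in place of probe sets, 0 of 26 passed in each of the 4 contrasts, against 0.0856% of all genes for the interaction with the B code, 0.00535% between last numbers and 0% in the other 2. An unadjusted p under 0.05 was found for 3 of 26 genes between B codes (12.1% of all) and 2 between last numbers (7.3% of all), and for 2 in the interaction with the B code (10.7% of all) and 2 in that with the last number (3.45% of all). By gene mean the lowest limma adjusted p was 0.306, for the interaction of NUAK1 with the B code, whose label difference was smaller in B code 4 than in B code 1 by 0.52 ± 0.16 (coded -0.52). An interaction between 2 and 2 pairs is measured with a large error. For single probe sets, known changes of 3 log2 put into the signals were recovered in 0% of cases for both interactions. The interaction counts of 0 probe sets therefore could not decide whether the differences were alike. Between B codes, 0% were recovered at 1 log2 and 40% at 2 log2, and between last numbers 0% and 46%. By gene mean too, a missed threshold does not show that the differences were alike.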

How the data were processed

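RNA was hybridised to whole-transcript arrays, 8 in all. Per the submitters' processing notes, RMA and Partek made the deposited log2 signals; no source used here gives versions, genome build or filters. RMA levels the arrays' distributions, so a shift of all genes would be removed, and it compresses dim signals. Base 2 is assumed, as RMA writes it. Exon-level and gene-level values share 4428 features, identical in 4428, so both tables describe the same 8 arrays. Column medians ran from 6.51 to 6.53 on induced and 6.55 to 6.59 on uninduced arrays; the number of arrays limits the precision.

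The annotation table gave 224320 exon-level probe sets 1 symbol, 10159 several and 22951 none; only the first were used. RefSeq of GRCh38.p14 gave order and current names (18596 of 18701 genes matched). Limma 3.58.1 in R 4.3.3 fitted label, B code and last number, on 4 residual and 3.05 prior degrees of freedom. P-values were adjusted by Benjamini and Hochberg's method over probe sets with a mean of at least 4.77. The members and lists were chosen with earlier results of these data known. All 26 genes are named; beyond them, genes between, the 6 nearest on each side, and the 2 lowest p per contrast. HCFC2 to NUP37, ACACB, NUDT4, XRCC6BP1, CEP290 and TMTC3 were named by the running order after values were seen. Figures used matplotlib 3.10.9.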

Additional observations from a re-analysis of the deposited data

Results flagged for a closer look

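WSCD2 was singled out because its label difference had opposite signs in the B codes. Both pairs of B code 4 were above 0 (mean 0.20) and both pairs of B code 1 below it (mean -0.07), a gap of 0.27 that the interaction test did not call (limma adjusted p = 0.593). Among 52 groups of 4 arrays, 0 held a value far enough from the rest to pass Dixon's critical value, where chance would give about 1 in 20.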

How the results depend on the processing

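The label differences kept their sign under every alternative for each of the 19 genes that differed by 0.25 log2 or more. Of the other 7, BTBD11, CKAP4, CMKLR1 and RFX4 changed sign under at least 1 alternative. The genes were chosen on this contrast, and for the 19, apart from TCP11L2 and RIC8B, induced and uninduced arrays do not overlap. Their kept sign was therefore largely fixed in advance and is no support. Over the 26 genes the median of 0.62 was 0.67 with median centring, 0.73 with per-array medians of a gene's probe sets and 0.71 in the gene-level table. A 1.5-fold mark gave 15 genes higher and a 4-fold mark 1 higher and 0 lower, in place of 7 higher and 1 lower. Probe sets numbered 149 higher and 28 lower at 1.5-fold and 28 higher and 4 lower at 4-fold, in place of 91 and 10. Shares over all genes and probe sets were not computed at 1.5-fold and 4-fold. Nothing is therefore read from the counts there. With only probe sets above the low-signal threshold 5 were at least 2-fold lower. Leaving out each array in turn gave 6 to 7 genes at least 2-fold higher (APPL2 was under the mark without either array of replicate 4, and EID3 passed it, at 1.05, without the uninduced one), 1 lower in each case, 20 to 22 above 0, a median of 0.61 to 0.66, and 90 to 99 probe sets higher and 10 to 16 lower. Same-numbered arrays did not deviate together (correlations -0.03 to 0.02). Label, B code and last number cross fully. A replicate block, the pair of arrays as a fixed effect, therefore had to return the same label differences. Its 7 genes higher and median of 0.62 are thus no support. It called 0 member probe sets in each of the 4 tested contrasts. The count was also 0 under the other alternatives. With so few arrays, only large differences between B codes or last numbers could have been called. For the interactions, known changes of 3 log2 were recovered in 0% of cases in the main fit. These counts of 0 therefore say nothing about stability. Because a gene's value is a mean over its probe sets, C12orf75 (1.37, against 2.11 in the gene-level table) and NFYB (0.70 from per-array means of its probe sets, 0.35 from per-array medians, 1.30 in the gene-level table, and 1.01 as the median of its probe sets' differences) depend on the summary. Further genes moved too: in the gene-level table ISCU was 2.26 (1.93 from exon-level means), C12orf45 2.22 (1.98), SELPLG 0.87 (0.60) and NUAK1 1.10 (1.37). CRY1 was -1.27 there (-1.48). ISCU, C12orf45 and C12orf75 thus passed the 4-fold mark in that table, but not by exon-level means. Dim signals limit what can be said of the 95 probe sets under the threshold.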
